A study of Homo sapiens with 9 samples.

Results

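MECOM, the 3q26 gene that encodes the zinc finger transcription factor EVI1, was measured together with 9 other genes of the chromosome bands 3q26 and 3q21. The 10 genes were taken by name, as genes of the 2 bands that are rearranged in 3q acute myeloid leukemia (AML). MECOM, MYNN, SEC62, PHC3 and GPR160 lie at 3q26, and GATA2, RPN1, EEFSEC, RUVBL1 and RAB7A lie at 3q21. All 10 were found among the 16612 genes of the counts table, and 10 passed the filter on low counts. HNT34 is an established human cell line of AML that carries a 3q rearrangement and expresses EVI1 highly. Cells were transduced with a lentiviral non-targeting shRNA (NT) or with an EVI1-directed shRNA, sh#16 or sh#87, and RNA was collected 3 days after selection, from 3 libraries per group. One field of the labels numbers the second shRNA 18, whereas the titles give 87, which is used here. All groups carried an integrated shRNA vector and went through the same selection, and only this 1 cell line was used. The labels do not say whether libraries came from separate cultures, so p-values measure the spread between libraries, which may be technical.

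MECOM is normally active in hematopoietic stem cells and is switched off during differentiation. Inversions and translocations between 3q21 and 3q26 bring a distal enhancer of GATA2 next to MECOM, so that MECOM is driven at a high level while the rearranged copy of GATA2 loses that enhancer. RPN1 lies beside the breakpoints at 3q21, and its name has long been attached to the rearrangement. The other genes are the neighbours that stay beside or move apart from these 2 loci.

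On GRCh38, RefSeq places MECOM at chr3:169083507-169663712, followed by MYNN at chr3:169773396-169789716, SEC62 at chr3:169966807-169998373, GPR160 at chr3:170037995-170085392 and PHC3 at chr3:170087584-170181733. The gaps between them were 110 kb, 177 kb, 39.6 kb and 2.19 kb in that order. At 3q21, RUVBL1 (chr3:128064785-128153914) and EEFSEC (chr3:128153481-128426223) overlap by their starts, and GATA2 follows at chr3:128479422-128493201, RPN1 at chr3:128619969-128650818 and RAB7A at chr3:128726183-128814798. These are positions on the reference chromosome, not on the rearranged chromosomes of HNT34. RUVBL1 also overlaps the protein-coding gene SEC61A1 (chr3:128051641-128071683). How far the counting used the strand is not given in the sources used here. The shares of reads from the overlaps of RUVBL1 with EEFSEC and with SEC61A1 therefore cannot be told apart.

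Upstream sequences are shown for MECOM, the targeted gene, for GPR160, the member that fell furthest, for PHC3, which lies beside GPR160, and for GATA2. They come from RefSeq (GRCh38.p14), read 5′ to 3′ on the strand of the gene, and end before the annotated transcript starts, further upstream for MECOM and PHC3, where other annotated transcripts reach into the window. Capitals mark a GATA motif (AGATAA, or TTATCT on this strand) and an E-box (CACGTG), the letters that GATA factors and MYC-type factors are known to bind.
MECOM, chr3:169663783-169663962, minus strand: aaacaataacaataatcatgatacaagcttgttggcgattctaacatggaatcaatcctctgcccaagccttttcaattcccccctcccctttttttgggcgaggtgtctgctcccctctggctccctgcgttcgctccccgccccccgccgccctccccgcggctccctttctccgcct
GPR160, chr3:170037745-170037994, plus strand: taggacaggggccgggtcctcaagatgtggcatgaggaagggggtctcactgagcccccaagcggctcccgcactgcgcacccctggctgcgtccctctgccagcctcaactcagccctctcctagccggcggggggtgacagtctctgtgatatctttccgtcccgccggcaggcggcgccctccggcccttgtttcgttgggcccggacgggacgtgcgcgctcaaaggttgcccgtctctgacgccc
PHC3, chr3:170181754-170181983, minus strand: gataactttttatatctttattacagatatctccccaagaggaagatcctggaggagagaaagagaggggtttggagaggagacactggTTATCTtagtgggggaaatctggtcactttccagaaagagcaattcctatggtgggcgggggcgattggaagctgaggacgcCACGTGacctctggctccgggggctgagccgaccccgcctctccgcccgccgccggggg
GATA2, chr3:128493202-128493451, minus strand: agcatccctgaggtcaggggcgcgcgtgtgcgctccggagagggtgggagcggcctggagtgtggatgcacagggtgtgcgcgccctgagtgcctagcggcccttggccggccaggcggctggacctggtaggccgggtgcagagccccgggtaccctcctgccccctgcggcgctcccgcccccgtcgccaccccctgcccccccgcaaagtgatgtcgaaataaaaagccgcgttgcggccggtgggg

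For 9 of the 10 members the RefSeq promoter table held 14 windows of 300 bases, which run from 250 bases before to 50 bases after a start. These were searched on both strands for 6 motifs. ACAAGATA is a short form of the site known for the first zinc finger domain of EVI1, and GAAGATGAG one for the second. No member's window held either of them, against 0.461% and 0.347% of all 35116 promoter windows. AGATAA was found 161 bases before the start of PHC3 and 29 bases before the third start of MECOM, both on the opposite strand, and 10.3% of all windows held it. TGATAA was found 31 bases before the first start of MECOM, beyond the bases shown, and 116 bases before the second start of MYNN, against 7.53% of all windows. CACGTG, which 7.26% of all windows held, was found 79 bases before the start of PHC3 and 201 bases before that of EEFSEC. CCGGAAG, a form of the ETS motif that 10.3% of windows held, was found 100 bases before the start of EEFSEC on the opposite strand. No 2 matches overlapped. The windows of SEC62, GPR160, GATA2, RUVBL1 and RAB7A held none of the 6 motifs.

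MECOM fell with sh#16 and sh#87, as did its 4 neighbours at 3q26 when both shRNAs were taken as 1 group, and GPR160 was close to 0 in every knockdown library. At 3q21, EEFSEC was higher, and the other 4 members were not past the threshold with both shRNAs as 1 group. A gene was counted as changed at an adjusted p of at most 0.01 in edgeR's quasi-likelihood test, adjusted by Benjamini-Hochberg over all 16312 genes tested. With both shRNAs as 1 group, 5 members fell, 1 rose and 4 did not pass. Of all genes tested, 59.8% changed in this comparison (30.1% higher and 29.7% lower), so the 6 members that changed were a share near the background. The median log2 fold change (log2FC) was -0.50 over the members, -1.09 over the 5 at 3q26 and 0.06 over the 5 at 3q21, beside 0.05 over all genes tested. These counts and the medians of the members and of 3q26 include MECOM, the target of both shRNAs, whose fall the design intended.

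MECOM was first examined as the target of both shRNAs. The level, in counts scaled to library size by TMM (CPM), was 571, 504 and 440 CPM in the NT libraries. It was 145, 143 and 145 CPM with sh#16 and 109, 107 and 106 CPM with sh#87. Every knockdown library was below every NT library, and the 3 libraries of each shRNA lay close together. With both shRNAs as 1 group MECOM fell, with a log2FC of -2.00 (SE 0.14, edgeR adjusted p = 9.18e-07). The log2FC was -1.81 (SE 0.09, adjusted p = 3.33e-07) with sh#16 and -2.23 (SE 0.09, adjusted p = 6.91e-08) with sh#87, in comparisons that share the NT libraries. Between 106 and 145 CPM of MECOM RNA stayed in the knockdown cells. In bulk RNA, fewer cells that carry a transcript and less of it per cell cannot be told apart. MECOM was lower with sh#87 than with sh#16 by a log2FC of -0.43 (SE 0.09, adjusted p = 0.00661), a difference that missed the threshold in 10 of 19 alternative settings.

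**Figure D1:**
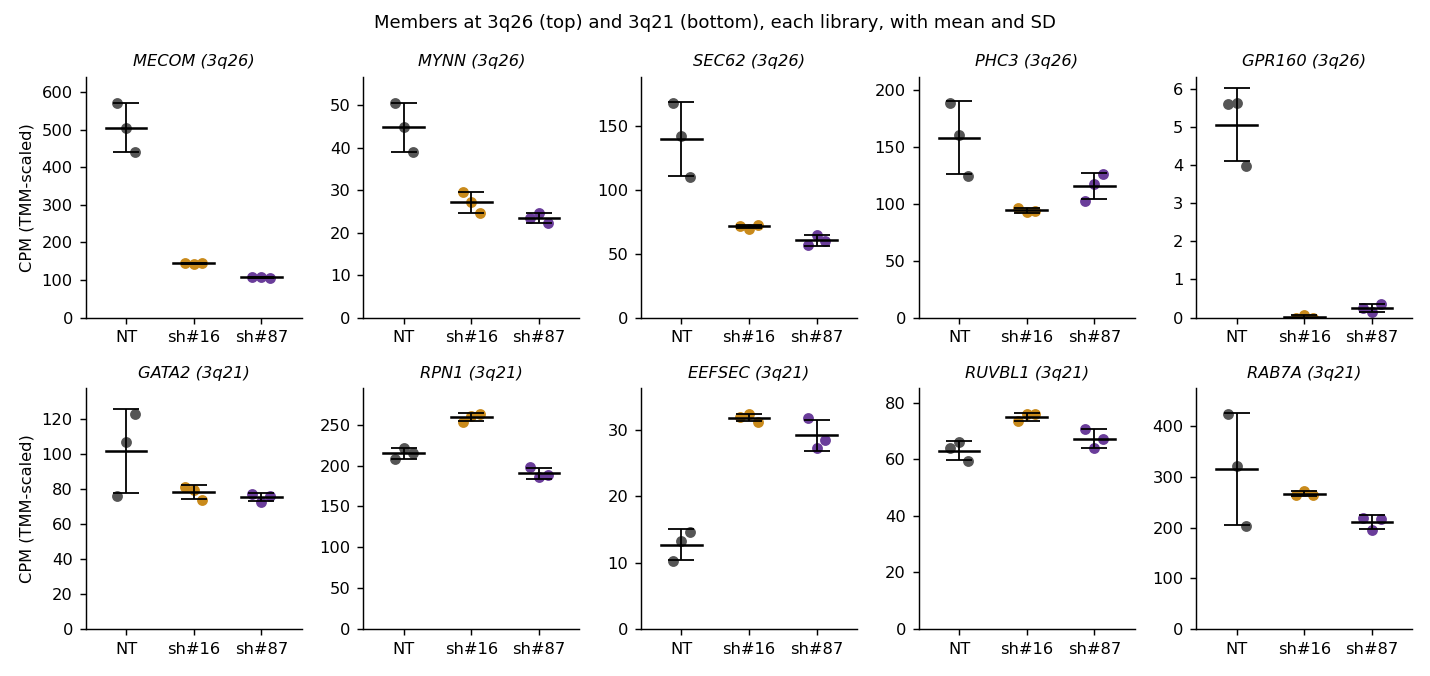
TMM-scaled CPM (vertical axes, from 0) of the 10 members in each library, with NT in grey, sh#16 in yellow and sh#87 in purple; the black lines are the mean and SD of 3 libraries. MECOM lies between 440 and 571 CPM in NT and between 106 and 145 CPM in the knockdown libraries, while RPN1 is above NT with sh#16 and below it with sh#87.

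MYNN, which encodes a zinc finger protein with a BTB domain, is the nearest protein-coding member to MECOM on the side of its transcript starts. MYNN stood at 50.6, 45.0 and 39.0 CPM in NT. It stood at 29.5, 27.3 and 24.6 CPM with sh#16 and at 23.5, 24.7 and 22.4 CPM with sh#87. The groups did not overlap between NT and knockdown. Its log2FC was -0.82 (SE 0.11, adjusted p = 1.04e-04) with both shRNAs. SEC62, a component of the membrane machinery that passes proteins into the endoplasmic reticulum, stood at 168, 142 and 110 CPM in NT. It stood at 72.0, 69.6 and 72.3 CPM with sh#16 and at 56.6, 65.0 and 59.6 CPM with sh#87. All 6 knockdown libraries were lower than the lowest NT library. The log2FC of SEC62 was -1.09 (SE 0.13, adjusted p = 3.56e-05). Neither gene passed the test of sh#87 against sh#16, where the log2FC was -0.21 (SE 0.11, adjusted p = 0.181) for MYNN and -0.24 (SE 0.13, adjusted p = 0.201) for SEC62.

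GPR160, an orphan G protein-coupled receptor gene, was the member with the lowest level. It had 130, 130 and 119 counts in the NT libraries, which are 5.59, 5.63 and 3.97 CPM. With sh#16 it had 0, 3 and 0 counts, and with sh#87 6, 3 and 7 counts, which are 0.249, 0.134 and 0.356 CPM. The transcript was thus read in every NT library and was at or near the limit of detection, 3 counts in a library, in every knockdown library. It fell with both shRNAs (fitted log2FC -5.27, SE 0.56, adjusted p = 1.67e-05) and with sh#87 alone (-4.35, SE 0.39, adjusted p = 7.66e-06). For sh#16 the pooled counts of 379 in NT and 3 in the knockdown give a level 148-fold lower, with an exact 95% counting interval of 50.3 to 721. That interval covers counting error only. The difference between the shRNAs, 16 counts against 3, did not pass (log2FC 2.72, SE 0.75, adjusted p = 0.0218).

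PHC3, a subunit of Polycomb repressive complex 1, is the member whose fall was least certain at 3q26. PHC3 stood at 189, 161 and 125 CPM in NT. It stood at 96.5, 92.9 and 93.5 CPM with sh#16, below all NT libraries. With sh#87 the values of 103, 118 and 126 CPM overlapped the lowest NT library. PHC3 had a log2FC of -0.59 (SE 0.14, adjusted p = 0.00330) with both shRNAs, -0.75 (SE 0.14, adjusted p = 9.77e-04) with sh#16 and -0.45 (SE 0.14, adjusted p = 0.0131) with sh#87. The call with both shRNAs was lost without NT replicate 1 (adjusted p = 0.0190), without NT replicate 2 (adjusted p = 0.0148), with upper-quartile normalization (adjusted p = 0.0126) and with the replicate number as a block (adjusted p = 0.0106). The direct difference between the shRNAs was not past the threshold (log2FC 0.29, SE 0.14, adjusted p = 0.130).

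GATA2, a transcription factor of hematopoietic stem and progenitor cells, stood at 76.0, 107 and 123 CPM in the NT libraries. It stood at 81.5, 79.7 and 73.8 CPM with sh#16 and at 77.2, 72.7 and 76.3 CPM with sh#87. NT replicate 1 lay among the knockdown libraries, and the other two NT libraries were above all of them. The log2FC of GATA2 was -0.41 (SE 0.13, adjusted p = 0.0149) with both shRNAs, which missed the threshold. It passed with DESeq2 (adjusted p = 0.00348), with RLE normalization (adjusted p = 0.00922) and without NT replicate 1 (log2FC -0.59, adjusted p = 2.25e-04). It was -0.27 (adjusted p = 0.0593) without NT replicate 3 and -0.29 (adjusted p = 0.0513) with upper-quartile normalization. The log2FC was -0.38 (SE 0.15, adjusted p = 0.0433) with sh#16 and -0.44 (SE 0.15, adjusted p = 0.0230) with sh#87, and the shRNAs differed by -0.06 (SE 0.15, adjusted p = 0.802).

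GATA2-AS1, a noncoding RNA gene on the opposite strand that overlaps GATA2, was called where GATA2 was not. From a mean of 23.6 ± 3.19 CPM (SD, n = 3) in NT it fell to 7.75 ± 0.408 CPM with sh#16 and to 7.56 ± 0.534 CPM with sh#87 (log2FC with both -1.63, SE 0.11, adjusted p = 6.97e-07). Because it is not stated how strand was used in counting, reads of GATA2 and GATA2-AS1 where they overlap cannot be told apart.

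RPN1 encodes ribophorin I, a subunit of the oligosaccharyltransferase that attaches sugar chains to new proteins in the endoplasmic reticulum. RPN1 stood at 208, 222 and 215 CPM in NT, the closest agreement among the NT libraries of any member (CV 3.20%). It was at 254, 261 and 263 CPM with sh#16, above all NT libraries, and at 198, 186 and 188 CPM with sh#87, below all of them. With both shRNAs as 1 group the log2FC was 0.06 (SE 0.14, adjusted p = 0.686). RPN1 rose with sh#16 (log2FC 0.27, SE 0.06, adjusted p = 0.00199), while with sh#87 the log2FC was -0.17 (SE 0.06, adjusted p = 0.0177). The sh#16 call of RPN1 was lost without sh#16 replicate 2 (adjusted p = 0.0104), without sh#16 replicate 3 (adjusted p = 0.0105) and with the replicate block (adjusted p = 0.0101). In the direct test RPN1 was lower with sh#87 than with sh#16 (log2FC -0.44, SE 0.06, adjusted p = 6.78e-04), and this call held in all 19 alternatives. MECOM and RPN1 were the 2 members called between the shRNAs, both lower with sh#87, where 17.7% of all genes tested were called (8.29% higher and 9.42% lower).

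EEFSEC, the elongation factor that brings selenocysteine to the ribosome, was the only member that rose with both shRNAs as 1 group. EEFSEC stood at 10.2, 13.3 and 14.7 CPM in NT. It stood at 32.0, 32.4 and 31.3 CPM with sh#16 and at 31.8, 27.3 and 28.5 CPM with sh#87. The 6 knockdown libraries were all above the 3 NT libraries. Its log2FC was 1.26 (SE 0.13, adjusted p = 1.25e-05) with both shRNAs, 1.32 (SE 0.13, adjusted p = 1.80e-05) with sh#16 and 1.19 (SE 0.13, adjusted p = 2.44e-05) with sh#87. The shRNAs differed by -0.13 (SE 0.12, adjusted p = 0.471).

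RUVBL1 encodes an AAA+ ATPase of the INO80 and TIP60 chromatin complexes and of a chaperone complex. Its start overlaps the start of EEFSEC on the opposite strand. RUVBL1 stood at 63.8, 66.0 and 59.3 CPM in NT, at 73.4, 75.9 and 75.9 CPM with sh#16, and at 70.8, 64.1 and 67.0 CPM with sh#87. The sh#16 libraries were above NT, whereas those of sh#87 overlapped NT. With sh#16 the log2FC was 0.25 (SE 0.07, adjusted p = 0.00718), a call that was lost in 10 of 19 alternatives, and with both shRNAs it was 0.18 (SE 0.08, adjusted p = 0.0841).

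RAB7A, the small GTPase of late endosomes and lysosomes, was the member that varied most among the NT libraries (CV 34.9%). Its levels were 424, 321 and 203 CPM in NT. They were 265, 273 and 264 CPM with sh#16 and 220, 195 and 218 CPM with sh#87. NT replicate 3 lay below all sh#16 libraries, and the other two NT libraries were above all knockdown libraries. The log2FC was -0.40 (SE 0.20, adjusted p = 0.0903) with both shRNAs, -0.24 (SE 0.21, adjusted p = 0.327) with sh#16 and -0.58 (SE 0.21, adjusted p = 0.0309) with sh#87. RAB7A with both shRNAs was called without NT replicate 3 (log2FC -0.66, adjusted p = 0.00325), while without NT replicate 1 its log2FC was -0.14 (adjusted p = 0.502) and the sh#16 value turned to 0.01 (adjusted p = 0.948).

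**Figure D2:**
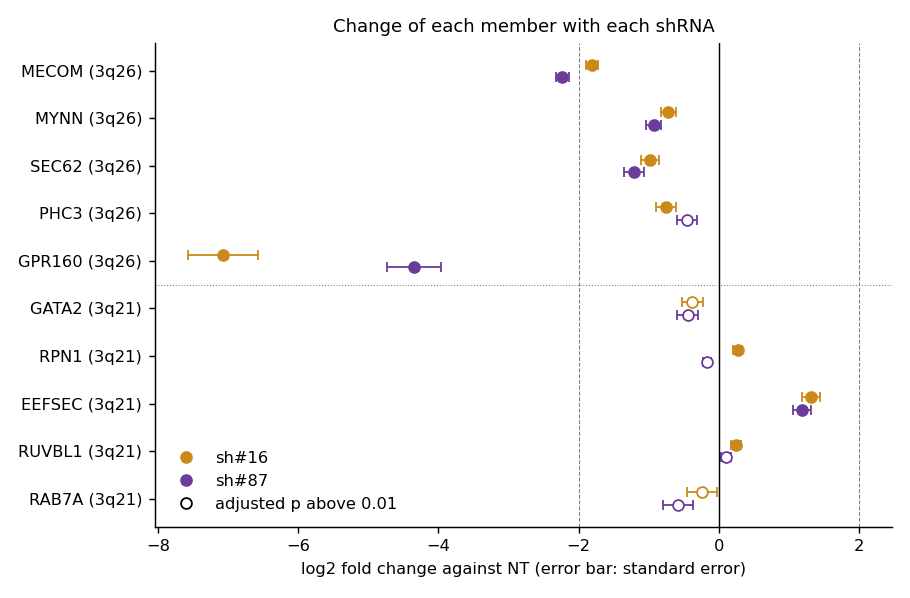
The log2FC against NT (horizontal axis) of each member with sh#16 in yellow and sh#87 in purple, with standard errors; filled points have an adjusted p of at most 0.01, and the dashed lines mark a log2FC of -2 and 2. The 3q26 members lie left of 0, with GPR160 at fitted values of -7.07 and -4.35, and EEFSEC lies at 1.32 and 1.19.

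Set side by side for each shRNA, with NT shared, 5 members fell and 3 rose with sh#16, where 60.0% of all genes tested changed (29.8% higher and 30.2% lower). With sh#87, 4 fell and 1 rose, where 67.9% changed (34.3% higher and 33.6% lower). All 5 members at 3q26 fell with sh#16, while with sh#87 PHC3 did not pass. At 3q21, EEFSEC rose with both, RPN1 and RUVBL1 rose with sh#16, and GATA2 and RAB7A passed with neither. By the stricter rule for differentially expressed genes (DEGs), which also asks for an absolute log2FC of at least 2, MECOM and GPR160 passed with both shRNAs and with sh#87, and GPR160 with sh#16. MECOM stood at that limit with both shRNAs (-2.00) and was short of it with upper-quartile normalization (-1.90), with a filter at a mean of 10 counts (-1.99), without NT replicate 1 (-1.92) and without any 1 of the sh#87 libraries (-1.96 to -1.95). DEGs made up 15.4%, 18.9% and 12.8% of all genes tested in these comparisons. With both shRNAs, 4 members had all knockdown libraries below all NT libraries and 1 had them above, against 32.1% and 33.9% of all genes tested.

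The NT libraries differed more from each other than the knockdown libraries did for most members. The CV in NT was 12.9% for MECOM and for MYNN, 20.6% for SEC62, 23.6% for GATA2 and 18.0% for EEFSEC. With sh#16 it was 0.991%, 9.12%, 2.08%, 5.12% and 1.73% for the same genes in that order. Across NT replicates 1, 2 and 3 the share of counts on mitochondrially encoded genes was 15.9%, 11.5% and 4.69%, with 2.69% to 2.88% with sh#16 and 4.62% to 5.97% with sh#87. MECOM, MYNN, SEC62, PHC3 and RAB7A were highest in the NT library with the highest mitochondrial share, and GATA2, RPN1 and EEFSEC were lowest in it. In a fit without mitochondrially encoded genes, the log2FC with both shRNAs stayed at -2.00 for MECOM, -1.09 for SEC62 and -0.41 for GATA2. That fit changes only which genes are counted, and the part of that share in these results was otherwise not tested. Depth was between 17096170 and 43502389 counts per library, and the sh#16 replicate 2 library was the deepest.

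Among the marker lists, 8 of the 10 myeloid and progenitor markers were in the table. Their summed level was 2065 to 2154 CPM in NT, 709 to 714 CPM with sh#16 and 401 to 409 CPM with sh#87. With both shRNAs, PTPRC, CD34, KIT and SPI1 fell, LYZ rose (log2FC 1.72, adjusted p = 0.00687), and CD33, ANPEP and CEBPA did not pass. PTPRC (855 CPM) and CD34 (731 CPM) made up most of the sum in NT. The sums ranged from 30.0 to 37.9, 8.93 to 10.2 and 4.83 to 5.70 CPM for 3 of 5 T cell markers in the same order of groups. For 3 of 5 B cell markers they ranged from 21.1 to 48.5, 5.70 to 6.18 and 2.64 to 3.22 CPM. For 2 of 5 epithelial markers they ranged from 126 to 138, 92.3 to 99.4 and 69.8 to 77.0 CPM. The 2 of 5 stromal markers in the table went opposite ways, with COL1A1 at 0.116, 26.4 and 29.3 CPM and PDGFRB at 9.64, 0.132 and 0.178 CPM in NT, sh#16 and sh#87. Their sums ranged from 5.93 to 13.8, 26.1 to 27.0 and 28.2 to 30.5 CPM. The 8 erythroid markers were not analysed here. The part of these lists in the members' values was not tested.

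Levels were compared between members per kilobase of the canonical spliced transcript (CPM per kb). In NT, RAB7A was at 145 ± 50.6 CPM per kb (SD, n = 3), RPN1 at 94.2 ± 3.01 and MECOM at 92.5 ± 12.0. The ranges of 1 SD overlapped between RAB7A and RPN1 and between RPN1 and MECOM, but not between MECOM and RUVBL1, the next in the order. RUVBL1 (33.2 ± 1.80), GATA2 (30.2 ± 7.11) and SEC62 (21.5 ± 4.43 CPM per kb) followed, again with SDs that overlapped between neighbours. Below them came PHC3 (12.5 ± 2.52), MYNN (9.03 ± 1.17), EEFSEC (5.78 ± 1.04) and GPR160 (2.58 ± 0.484 CPM per kb), where the SDs of PHC3 and MYNN overlapped and the others did not. MECOM thus stood level with RPN1 in NT. With sh#87 MECOM was at 19.7 ± 0.314 CPM per kb, below RUVBL1 (35.4 ± 1.78) and GATA2 (22.3 ± 0.700) and above EEFSEC (13.3 ± 1.05). With sh#16 MECOM was at 26.5 ± 0.262 CPM per kb, between RUVBL1 (39.5 ± 0.748) and GATA2 (23.2 ± 1.19). One length was used per gene, so a change of isoform, such as between MECOM transcripts, would move these levels and was not measured.

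Around MECOM, 10 other genes within 500 kb of its ends were tested, and 6 (60.0%) fell and 2 (20.0%) rose, with a median log2FC of -0.83. Over all genes tested, 29.7% were lower and 30.1% higher. MYNN, SEC62, GPR160 and PHC3 are 4 of the 6 that fell. LRRC34, which lies beside MYNN, also fell (log2FC -1.94), as did RPL22P1 (-3.04), a ribosomal protein pseudogene inside MECOM whose reads may belong to other copies. Within 2000 kb, 18 other genes were tested, of which 7 (38.9%) fell and 4 (22.2%) rose (median -0.56). TERC, the RNA component of telomerase, had a log2FC of 0.84 (SE 0.82, adjusted p = 0.375) and a mean of 0.921 CPM in NT. ACTRT3 had a log2FC of -0.84 (SE 0.45, adjusted p = 0.114) and a mean of 0.692 CPM in NT. Both levels were low, which limits what these values show. Around GATA2, 3 of 9 other genes within 500 kb rose (33.3%) and 2 fell (22.2%), with a median of 0.07. Within 2000 kb, 12 of 36 rose (33.3%) and 7 fell (19.4%), with a median of 0.07.

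By bands, 17 of 28 listed genes in and around 3q26.2 were tested, and 8 fell and 3 rose (median log2FC -0.82). The shares over all genes tested were 29.7% lower and 30.1% higher. Without the members, 3 of 12 fell and 3 rose (median -0.29), so most of the genes that fell in this list are members. SERPINI1, a neuronal serpin (1.67), TNIK, a kinase of Wnt signaling (1.66), and the pseudogene EGFEM1P (1.59) rose, and FNDC3B fell (-1.37). Of 33 listed genes in and around 3q21.3, 27 were tested, and 9 rose and 5 fell (median 0.07). PODXL2, a sialomucin (2.51), H1-10, a linker histone (2.10), and IFT122, a part of the ciliary transport machinery (1.73), rose further than EEFSEC. H1-10 stood at 16.2, 32.1 and 78.6 CPM in the NT libraries, a CV of 76.7% beside the 34.9% of RAB7A, the highest of a member in NT.

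The partners and relatives of the members were described with lists of their complexes and families, all for both shRNAs against NT. PRDM genes, the family to which MECOM belongs by its PR domain isoform, fell in 8 of 9 tested members with none higher (median log2FC -1.45). Without MECOM, 7 of 8 fell (median -1.03). PRDM16, the closest paralog of MECOM, fell from 12.9 to 3.49 CPM with sh#16 and to 1.81 CPM with sh#87 (log2FC -2.27, SE 0.28, adjusted p = 3.93e-05). PRDM8 (-2.44), PRDM11 (-2.10) and PRDM10 (-1.45) fell as well.

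Of 10 factors that work together in progenitors, GATA2 included, 5 fell and 1 rose (median -0.77), and 29.7% of all genes tested were lower. FLI1 fell from 185 to 17.2 CPM with sh#16 and to 7.67 CPM with sh#87 (log2FC -3.89, SE 0.31, adjusted p = 2.20e-06), and ERG, another ETS factor, fell from 203 to 36.1 and 16.7 CPM (-2.94, SE 0.30, adjusted p = 1.16e-05). LMO2 (-1.47) and TAL1 (-1.27), which join GATA factors in 1 complex, also fell. These 4 genes were each lower with sh#87 than with sh#16.

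Polycomb repressive complex 1, to which PHC3 belongs, changed in both directions, with 9 of 20 genes lower and 4 higher (median -0.30). PCGF5 (-1.48), PCGF2 (-0.90) and SCMH1 (-0.88) fell, and CBX7, a chromodomain subunit, rose (1.89). Of 20 genes of the Sec translocon and signal recognition particle, 9 fell and 6 rose (median -0.43). SEC63, which works with SEC62, fell from 138 to 41.0 CPM with sh#16 and 39.2 CPM with sh#87 (log2FC -1.79, SE 0.15, adjusted p = 2.60e-06). HSPA5, the chaperone that SEC63 recruits, fell (-1.46), and SRP72 fell (-1.33), while SEC61A2 rose (1.85).

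Of 11 oligosaccharyltransferase genes, 2 rose and 1 fell (median 0.06). DAD1 (1.46) and MAGT1 (0.66) rose, and the catalytic subunit STT3A fell (-1.10), while RPN1 had a log2FC of 0.06. Like RPN1, DAD1 was lower with sh#87 than with sh#16, at 24.6 CPM in NT, 81.6 CPM with sh#16 and 53.8 CPM with sh#87. In the selenocysteine list of EEFSEC, 8 of 23 fell and 7 rose (median 0.12). SELENOO (2.14) and SELENOW (1.65) rose with EEFSEC, and TXNRD2 (-1.43) and SEPHS1, related to the selenophosphate synthetase (-1.30), fell.

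In the complexes of RUVBL1, 8 of 25 rose and 8 fell (median -0.13). RUVBL2, with which RUVBL1 forms a ring, rose from 48.1 to 137 CPM with sh#16 and 150 CPM with sh#87 (log2FC 1.58, SE 0.15, adjusted p = 7.23e-06), where RUVBL1 had a log2FC of 0.18. ACTR5 of INO80 rose (1.72), and YEATS4 (-1.80) and MORF4L1 (-1.73) of the TIP60 complex fell. Among effectors and regulators of RAB7A, 9 of 24 fell and 6 rose (median -0.19). TBC1D2, which turns RAB7A off, rose from 1.53 to 17.1 and 20.8 CPM (3.61, SE 0.29, adjusted p = 2.56e-06), and PLEKHM1 (1.82), WDR91 (1.54) and VPS18 (1.38) rose. Beside the background of 59.8% changed genes, the share changed was 88.9% in the PRDM list, 75.0% in the Sec translocon list and 27.3% in the oligosaccharyltransferase list, and no test of a list was made.

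The genes whose pattern over the 9 libraries was most like that of MECOM, by Pearson's r of log2 CPM among 9813 genes with a mean of at least 10 CPM, were STAG2, TAF1D, RAB22A, FOXC1 and MAP3K20 (r = 0.999 for each). STAG2, a cohesin subunit, went from 401 CPM in NT to 70.2 CPM with sh#16 and 46.2 CPM with sh#87, and FOXC1, a forkhead factor, from 127 to 27.5 and 20.0 CPM. Among the members, r with MECOM was 0.979 for SEC62, 0.977 for MYNN, 0.768 for PHC3, 0.656 for GATA2 and -0.953 for EEFSEC, and SEC62 was at place 1100 in this order. For GATA2 the closest genes were SMYD5 (0.986), SETD1B (0.979), TBC1D9B (0.977), CCDC97 (0.976) and PCIF1 (0.974). The 9 points share libraries, depth and the 3 groups, so these values describe the pattern and carry no test.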

How the data were processed

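PolyA-selected, strand-specific libraries of HNT34 cells were sequenced, 3 for each of NT, sh#16 and sh#87. Unnormalized estimated counts by gene symbol were deposited by the authors. The file header names salmon, while STAR v2.7.1a and GRCh38 are named in the methods. All values were whole, so none was rounded. The rule by which genes entered the table is not given in the sources used here. Counts were tested in R 4.3.3 with edgeR 4.0.16 (TMM, filterByExpr, quasi-likelihood test, Benjamini-Hochberg), which left 16312 genes. A fit of 2 groups gave both shRNAs against NT, and a fit of 3 groups gave the single shRNAs and their difference. SEs were taken from the log2FC and the F statistic. Alternatives were DESeq2 1.42.0, limma-voom 3.58.1, other normalizations, filters and thresholds, a replicate block and each library left out. A fit without mitochondrially encoded genes was a further alternative. Members and lists were chosen with earlier results of these data known. From each list, up to 4 further genes were named: those with the largest absolute log2FC among genes that passed, with the same sign for each shRNA and a mean of at least 5 CPM. Of the neighbours of MECOM and GATA2, LRRC34, RPL22P1, TERC and ACTRT3 were chosen after their values were seen. So were LYZ, CD33, ANPEP, CEBPA and KRT18 of the markers. Same-numbered libraries did not deviate together (r between -0.452 and 0.178).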

Additional observations from a re-analysis of the deposited data

Results flagged for a closer look

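The sh#16 replicate 2 library stood apart in depth among the 6 knockdown libraries, with 43502389 counts (gap to range 0.773). Depth was the 1 measure of 60 that did so, where chance gives about 1 in 20 for 6 like libraries. The 6 libraries pool both shRNAs, and a difference between these widens the range, so that rate does not hold for such genes.

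Between sh#87 and sh#16, 18 genes differed in the direct edgeR test among 59: the members, the genes named from their bands, families and complexes, and the genes most like MECOM or GATA2. Of all genes tested, 17.7% differed. Many of the 59 were chosen for a large change or for their pattern in these same data, so their share cannot be compared with that of all genes. The marker genes are outside the 59. Of the 8 myeloid and progenitor markers tested, 6 were lower with sh#87: CD34 (-1.46), LYZ (-1.39), ANPEP (-1.03), SPI1 (-0.93), PTPRC (-0.51) and KIT (-0.31). LCK (-1.33) of the T cell markers and KRT18 (-0.44) of the epithelial markers were also lower. No B cell or stromal marker passed. MECOM (log2FC -0.43) and RPN1 (-0.44) were the members among the 18 genes. Of the genes named at the 2 bands, SERPINI1 (0.59) and IFT122 (0.98) were higher and PODXL2 (-0.64) was lower with sh#87. Of the named relatives and partners of MECOM and GATA2, PRDM16 (-0.95), FLI1 (-1.17), ERG (-1.11), LMO2 (-0.90) and TAL1 (-0.53) were lower. Of the complexes of the other members, DAD1 (-0.60), SEPHS1 (-0.53), YEATS4 (-0.75) and MORF4L1 (-0.99) were lower, and SEC61A2 (0.89) and WDR91 (0.51) were higher. STAG2 (-0.60) and MAP3K20 (-0.54), of the genes most like MECOM, were lower. Apart from the members, list genes not called with both shRNAs as 1 group are outside the 59. Of such genes at the bands and among the partners of GATA2, GATA1 (-3.21), RUNX1 (-0.67) and RPL22L1 (-1.22) were lower and SKIL (0.79) was higher with sh#87. The mean of GATA1 was 1.16 CPM or less in each group.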

How the results depend on the processing

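Of 759 values of 40 member results under alternatives, 707 kept their direction and side of the threshold, 27 lost the call and 24 gained it. The 1 that reversed was RAB7A with sh#16, whose log2FC was 0.01 without NT replicate 1 and -0.51 without NT replicate 3. MECOM kept an adjusted p under 0.01 with both shRNAs in every setting, with a log2FC between -1.90 (upper-quartile normalization) and -2.12. The shares of all genes called under the alternatives are not given here, so the member counts that follow have no background beside them. With sh#87, 5 members changed, against 9 with the threshold at 0.05 and 8 with DESeq2. With 1 library left out, between 5 and 8 changed (8 without NT replicate 3). Between the shRNAs 2 changed, against 5 when only the compared groups were fitted, 1 with RLE, with upper-quartile normalization and with the replicate block, and 1 to 2 with 1 library left out. The replicate block, with 5 members called with both shRNAs, 6 with sh#16 and 5 with sh#87, took away the calls of PHC3 with both (adjusted p = 0.0106), of RPN1 (0.0101) and RUVBL1 (0.0209) with sh#16 and of MECOM between the shRNAs (0.0140), and changed no other call of a member. The Polycomb list had 7 changed genes without NT replicate 2, against 13. The share of all genes called in that fit is not given here, so this drop is not shown to be particular to the list. Upper-quartile normalization moved the median log2FC of all genes from 0.05 to 0.16. The causes were not tested. Depth limits GPR160 most, whose knockdown libraries held 7 counts or fewer.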
